A study of Mus musculus with 14 samples.

Results

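A group of 10 genes, called the members here, was followed in the cells of white nodules of mice: the transcription factor genes Pax5, Ebf1, Bach2, Pou2af1, Pou2f2, Spib, Irf8, Irf4, Prdm1 and Xbp1. They were taken by gene symbol from a fixed list, each symbol matched 1 gene, and they are 10 of the 32285 genes counted. The nodules came from 7 sick mice with Eif3e fl/fl and Cγ1Cre alleles (cKO mice), in which the Cre recombinase is expressed from the Ighg1 locus, where transcription starts in activated B cells. Eif3e codes for part of eIF3, which helps ribosomes start translation. A single-cell RNA library, made in droplets, and a V(D)J library of rearranged antigen receptors were prepared from the cells of every nodule. The receptor library held the B cell receptor (BCR) in mice 27 (liver, 12 months), 29 (lung, 12 months), 31 (spleen, 13 months), 33 (thymus, 16 months) and 34 (lung and thymus, 9 months), whereas in mice 30 (liver, 14 months) and 32 (spleen, 12 months) it held that of T cells (TCR). The study describes the tumor of mouse 27 as one grown after transfer into a Rag2-/- recipient, which has no mature lymphocytes of its own, and gives a Rosa26-YFP reporter allele for mice 29, 31, 32 and 34. No nodule without Cre was among these samples, so each comparison is between cells of such nodules, and host cells in the library of mouse 27 may be of the recipient's genotype.

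In the development of B cells, Ebf1 and Pax5 set up and keep B cell identity, and Pou2af1, Pou2f2, Spib and Irf8 act with them at immunoglobulin and antigen presentation genes. Bach2 keeps activated B cells from turning into plasma cells. Prdm1, which encodes Blimp-1, Irf4 at high level and Xbp1 drive the plasma cell program, in which Pax5 and Bach2 are shut down and the secretory machinery grows. Several members also work outside the B lineage, among them Irf8 in dendritic cells and macrophages, and Irf4, Prdm1 and Bach2 in T cells.

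The promoters below are shown because Blimp-1 and the unfolded protein response are textbook links between these genes. Of the 10 members, all matched in the RefSeq promoter table of the GRCm38.p6 build, with 12 promoters that each run from 250 bases before to 50 bases after the start of a transcript. Sequences are written 5′ to 3′ on the strand of the gene, with the matched letters in capitals. The Pax5 promoter (chr4:44710645-44710944, minus strand) holds a Prdm1 motif on the opposite strand, 191 bases before the start. The Bach2 promoter (chr4:32417185-32417484, plus strand) holds the same motif and, overlapping it, a composite motif of Ets and interferon regulatory factors. This window belongs to a transcript that starts inside the gene, which spans chr4:32238413-32586109, and the outer start of the gene was not searched. The Pou2af1 promoter (chr9:51213440-51213739, plus strand) holds the unfolded protein response element 61 bases before the start.
Pax5: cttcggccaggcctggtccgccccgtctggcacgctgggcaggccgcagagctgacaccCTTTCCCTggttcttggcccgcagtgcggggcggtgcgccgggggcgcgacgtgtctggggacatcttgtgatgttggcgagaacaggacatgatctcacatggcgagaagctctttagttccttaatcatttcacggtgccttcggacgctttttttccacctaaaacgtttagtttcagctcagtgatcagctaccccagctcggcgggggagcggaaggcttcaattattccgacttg
Bach2: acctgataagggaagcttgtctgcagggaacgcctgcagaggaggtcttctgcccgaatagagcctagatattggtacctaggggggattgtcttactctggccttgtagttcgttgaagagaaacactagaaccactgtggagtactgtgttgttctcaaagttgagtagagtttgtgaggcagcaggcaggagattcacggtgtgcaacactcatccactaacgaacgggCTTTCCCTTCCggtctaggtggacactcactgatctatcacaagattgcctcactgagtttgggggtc
Pou2af1: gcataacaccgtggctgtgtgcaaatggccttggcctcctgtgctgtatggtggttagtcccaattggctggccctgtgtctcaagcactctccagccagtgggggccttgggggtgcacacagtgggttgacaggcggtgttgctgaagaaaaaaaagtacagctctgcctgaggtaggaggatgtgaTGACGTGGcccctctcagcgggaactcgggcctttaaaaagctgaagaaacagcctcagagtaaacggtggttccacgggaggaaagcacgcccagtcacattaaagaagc
The Prdm1 motif was searched as AGNGAAAG on both strands. It lay in the promoters of Pax5, Bach2 and Ebf1, and in 8.63% of the 32851 promoters of the table. The composite motif GGAANNGAA lay in the promoters of Bach2 and Pou2f2 and in 8.24% of all promoters. The element TGACGTGG lay in the Pou2af1 promoter alone among the members and in 0.676% of all promoters. The octamer ATTTGCAT and the Ebf1 motif CCCNNGGGA were in 0 of the 12 member promoters and in 1.74% and 6.56% of all promoters. These matches describe letters in a short window and are not binding sites.

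Values are counts of unique molecular identifiers (UMIs), which stand for captured transcripts. Here the UMIs of a gene were summed over the cells of a group in a mouse and divided by the summed UMIs of all genes there, and the ratio was scaled to 1000000 UMIs (CPM). Intervals in square brackets are exact 95% Poisson intervals and cover counting error only. Of 77442 deposited cells 75503 were kept, the 7 libraries held 19264039 to 123456962 UMIs, and their median cell held 1364 to 5319 UMIs. Any pair of libraries shared 96 to 286 cell barcodes, at most 2.28% of the smaller library. A B clone is the set of cells that carry the most common heavy chain of a BCR mouse, or the light chain most common among those cells. There were 1782, 323, 3974, 1084 and 1416 such cells in mice 27, 29, 31, 33 and 34, with medians of 9367 to 13763 UMIs. Other B cells are B-like cells with a different receptor, of which mice 29, 31, 33 and 34 had 32, 41, 27 and 24. Mouse 27 had 0, since each of its cells with a receptor call belonged to the clone. The classes of all other cells, called T-like, macrophage or monocyte and so on, came from clusters made without the 10 members and named by markers. The clone cells fitted the B label: Cd79a, a chain of the B cell receptor complex, stood at 280 to 1121 CPM in the 5 clones and at 0.634 to 51.5 CPM in the T-like cells of the 7 mice, and Cd3e, a chain of the T cell receptor complex, stood at 0.715 to 9.37 CPM in the clones. Eif3e itself was at 169 to 243 CPM in the B clones and 117 to 170 CPM in the T-like cells of the 7 mice.

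Among the factors of B cell identity, Pax5 stood at 111, 223, 67.9, 87.4 and 143 CPM in the clones of mice 27, 29, 31, 33 and 34. Ebf1, which acts upstream of Pax5, stood at 327, 614, 241, 709 and 573 CPM in the same order of mice. Mouse 31 was lowest for both genes, while mouse 29 was highest for Pax5 and mouse 33 for Ebf1. The 5 clones differed in both genes beyond counting error, with no overlap of the intervals of neighbours in the order of levels. In such sums, fewer cells with a transcript and fewer transcripts per cell cannot be told apart, and levels of different genes are not set against each other because they were not scaled to transcript length.

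Bach2 had the widest ratio of highest to lowest clone among the 10 members, although Prdm1 had the larger coefficient of variation over the 5 clones (128%, beside 106% for Bach2). Its levels were 21.1, 367, 10.1, 115 and 168 CPM for mice 27, 29, 31, 33 and 34. The highest clone was 36.5 times the lowest, so that the clones of mice 27 and 31 held little of a transcript that was prominent in mouse 29.

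Of the factors that work at octamer and Ets sites, Pou2af1, the B cell coactivator of the octamer factors, stood at 310, 159, 585, 134 and 319 CPM in mice 27, 29, 31, 33 and 34. Pou2f2, which encodes the octamer factor Oct2, stood at 37.5, 71.6, 15.5, 45.0 and 56.3 CPM. Spib, an Ets factor, stood at 39.9, 51.6, 14.3, 18.2 and 76.7 CPM. Mouse 31 was at opposite ends for the coactivator and the octamer factor, with the most Pou2af1 and the least Pou2f2 of the 5 clones. Irf8, an interferon regulatory factor of B cells and myeloid cells, stood at 298, 107, 388, 114 and 200.8 CPM, again with mouse 31 highest and with overlapping intervals in mice 29 and 33.

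For the plasma cell factors, Irf4 stood at 93.0, 115, 66.7, 74.1 and 196 CPM in mice 27, 29, 31, 33 and 34. Prdm1 stood at 81.4 CPM [77.3 to 85.7] in mouse 27 and at 10.5, 2.74, 14.1 and 16.2 CPM in the other 4. Xbp1, which encodes the secretory transcription factor of the unfolded protein response, stood at 105, 30.5, 266, 33.8 and 74.8 CPM. The clone of mouse 27 stood apart for Prdm1, at 29.7 times the level of mouse 31, and both of the larger clusters of that clone held it, at 85.9 CPM in 1149 cells and 77.0 CPM in 557 cells. Mouse 31 had the least Prdm1 and the most Xbp1, while mouse 27 had the most Prdm1 and was next after mouse 31 for Xbp1. Of the plasma cell list, Sdc1, which encodes CD138, and Tnfrsf17, the receptor BCMA, were near 0 in all 5 clones. They stood at 0.0206 to 2.05 CPM and 0 to 1.03 CPM. Other genes of the plasma cell list were present in each clone, with Mzb1 at 222 to 863 CPM, Slamf7 at 181 to 369 CPM, Jchain at 38.0 to 1025 CPM and Eaf2 at 30.9 to 197 CPM.

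**Figure D1:**
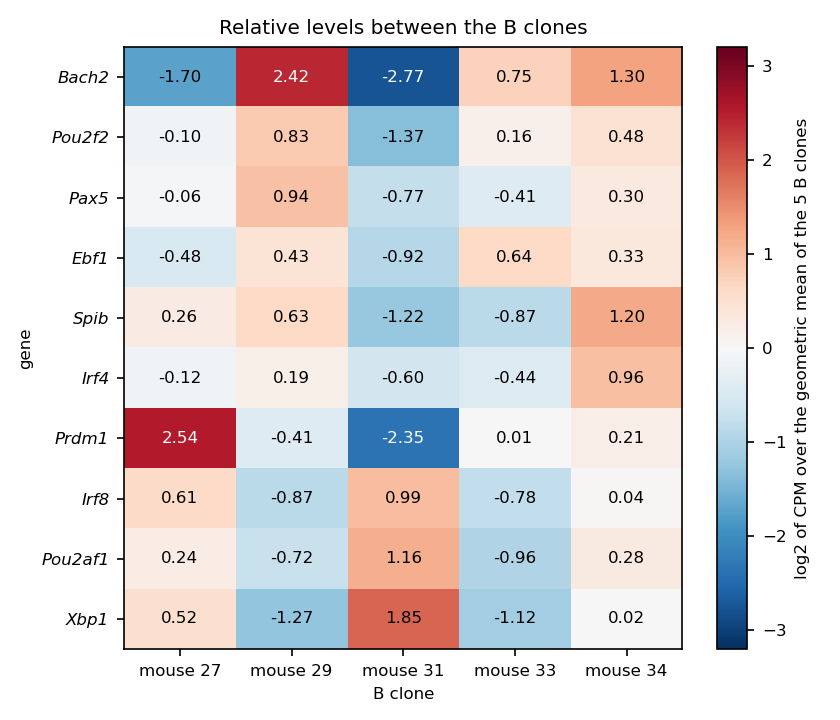
Colour and number give the log2 of the CPM of each member in a B clone (columns, by mouse) over the geometric mean of the 5 clones (rows are genes). In mouse 31 Bach2 is at -2.77 and Prdm1 at -2.35 while Xbp1 is at 1.85 and Pou2af1 at 1.16, and in mouse 29 Bach2 is at 2.42 and Xbp1 at -1.27.

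Mice 31 and 29 most often held an end of the order of the clones. Mouse 33 was highest for Ebf1 and lowest for Pou2af1, mouse 34 highest for Spib and Irf4, and mouse 27 highest for Prdm1. Mouse 31 was the lowest of the 5 clones for Pax5, Ebf1, Bach2, Pou2f2, Spib, Irf4 and Prdm1 and the highest for Pou2af1, Irf8 and Xbp1. Mouse 29 was the highest for Pax5, Bach2 and Pou2f2 and the lowest for Irf8 and Xbp1. The ratio of the highest to the lowest clone was 8.71 for Xbp1, 5.36 for Spib, 4.60 for Pou2f2, 4.35 for Pou2af1, 3.64 for Irf8, 3.29 for Pax5 and 2.94 for both Irf4 and Ebf1. Among the clones after mouse 27, the Prdm1 intervals of mice 34 and 33 and of mice 33 and 29 overlapped, as did those of Pou2af1 in mice 34 and 27 and of Xbp1 in mice 33 and 29. Each clone is 1 tumor in 1 mouse, from liver, lung, spleen, thymus, or lung and thymus together. The tumor of mouse 27 was described as grown after transfer into a recipient, which cannot be told apart from other traits of its clone. Differences between clones have no replicate and were not tested.

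The clone cells of mice 31 and 33 were also split by the amount of Malat1, a nuclear noncoding RNA, and this split was made after the values were seen. In mouse 31, 264 clone cells lay in a cluster with 788 CPM of Malat1 and 3200 in the largest cluster with 8820 CPM. In mouse 33 the numbers were 161 cells with 281 CPM and 917 cells with 3715 CPM. Ebf1 was 0.0975 of its level in the largest cluster in mouse 31 and 0.0877 in mouse 33. Irf4 was 0.0973 and 0.207 of that level, and Pax5 0.284 and 0.281. Bach2 was also lower, at 0.0410 from 1 UMI [0.00104 to 0.230] in mouse 31 and 0.195 in mouse 33. Pou2af1, at ratios of 1.11 and 1.07, and Irf8, at 1.05 and 1.06, stood close to their level in the largest cluster in both mice. Xbp1 was at 0.711 and 1.01. No test was made between clusters, whose cells come from the same 2 clones, and the part of nuclear RNA in these ratios was not tested.

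**Figure D2:**
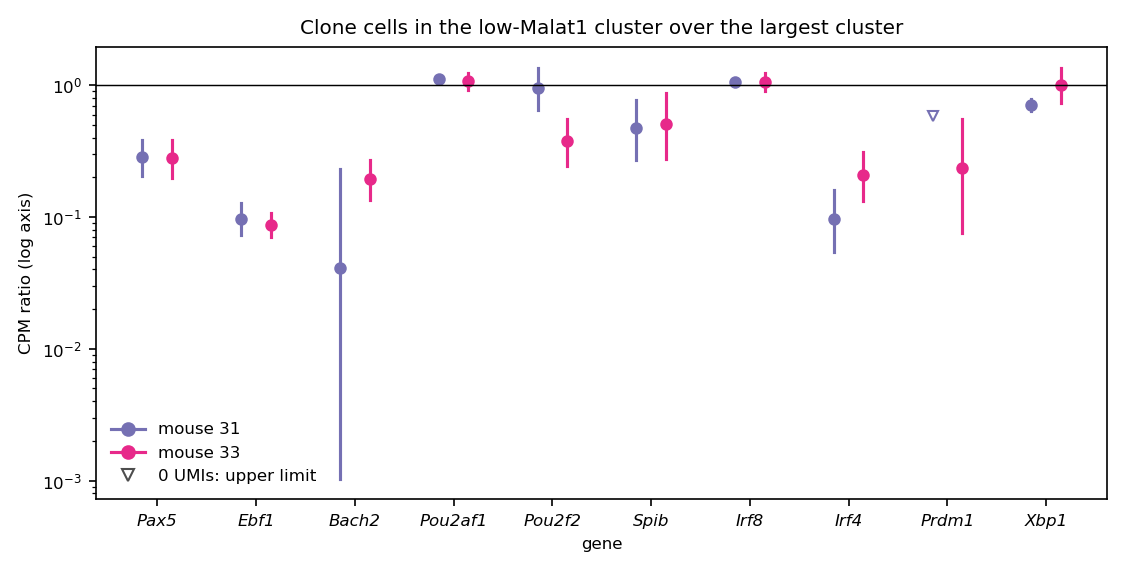
Points give, on a log axis, the CPM of each member in the clone cells of the cluster with little Malat1 over that in the largest cluster, for mouse 31 and mouse 33, with exact 95% intervals of the ratio of 2 counts, and the open triangle marks the upper limit for Prdm1 in mouse 31, which had 0 UMIs. Ebf1 and Irf4 lie near 0.1 to 0.2 in both mice, and Pou2af1 and Irf8 lie near 1.

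The first question was whether the clones differed from other B cells of the same nodules. The sums of 4 mice were compared with edgeR's quasi-likelihood test, with the mouse as a block, and a gene passed at a Benjamini-Hochberg adjusted p under 0.05 over all genes tested. Of 9229 genes 2 passed, which is 0.0217%, and 0 of the 10 members did, with Prdm1 alone among the members and 986 genes at an unadjusted p under 0.05. DESeq2, run on the same sums, called 128 genes. These sums of other B cells rest on 24 to 41 cells a mouse, and 22 of 27 of them in mouse 33, 11 of 24 in mouse 34 and 5 of 41 in mouse 31 lay in clusters that hold the clone.

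Prdm1 was the member with the largest difference. The clones of mice 29, 31, 33 and 34 held 10.5, 2.74, 14.1 and 16.2 CPM of it, and the other B cells of the same mice held 59.3, 79.4, 41.3 and 19.7 CPM. It was lower in the clone in 4 of 4 mice, although the other B cells held only 5 to 11 UMIs of Prdm1 each. The share of all genes with such a pattern was not counted. In mouse 34 the intervals overlapped, with [14.4 to 18.2] in the clone and [6.41 to 46.0] in other B cells. The clone of mouse 27, which had no other B cells to compare, held 81.4 CPM, above all of these values. The log2 fold change was -2.39 (SE 0.65), with an unadjusted p of 0.00396 and an adjusted p of 0.248 by edgeR. DESeq2 gave -2.47 with an adjusted p of 0.0294 and called 1.08% of genes lower. With the other B cells limited to those in a cluster led by Ighm, only 5 of them in mouse 33, the edgeR value was -3.04 (adjusted p = 0.0141). Without mice 33 and 34 it was -3.78 (adjusted p = 0.0218). Those mice had the smallest Prdm1 differences, so a larger value was built into that choice. Both fits were chosen after seeing the data, and both called many more genes than the main fit. With single mice left out the Prdm1 value ran from -1.64 to -3.08, and the adjusted p by edgeR ran from 0.175 to 0.417. Plasma cell RNA moved with it in mice 29, 31 and 33 and not in mouse 34. The 6 plasma cell markers summed to 294, 942, 577 and 1557 CPM in the clones of mice 29, 31, 33 and 34 and to 15807, 1992, 3258 and 1243 CPM in other B cells, while Sdc1 was at 0 UMIs in the other B cells of mice 31 and 33. Jchain, the joining chain of secreted IgM and IgA, stood at 14907 CPM in the other B cells of mouse 29 and at 38.0 in the clone. Malat1 also stood higher in other B cells (6231 to 12900 CPM) than in the clones of the same mice (3413 to 7824 CPM). The part of either in the Prdm1 values was not tested.

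The other 9 members did not pass. Bach2 stood at 173, 289, 94.96 and 209 CPM in other B cells of mice 29, 31, 33 and 34, so the range of the clones (10.1 to 367 CPM in those mice) spread to both sides of it. In mouse 31 the clone had 10.1 CPM of Bach2 beside 289 in other B cells, and in mouse 29 it had 367 beside 173. Pax5 in other B cells was 108, 289, 82.6 and 201.3 CPM, and Irf4 was 146, 447, 45.4 and 90.8. The fold changes of the 9 ranged from -0.85 (Xbp1, SE 0.64, adjusted p = 0.660) to 0.47 (Spib, SE 0.56, adjusted p = 0.801) on the log2 scale by edgeR. With standard errors of 0.29 (Irf8) to 0.74 (Bach2), differences of that size were not resolved with 4 mice. The median of the 10 members was -0.44, beside 0.13 over all genes tested.

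**Figure D3:**
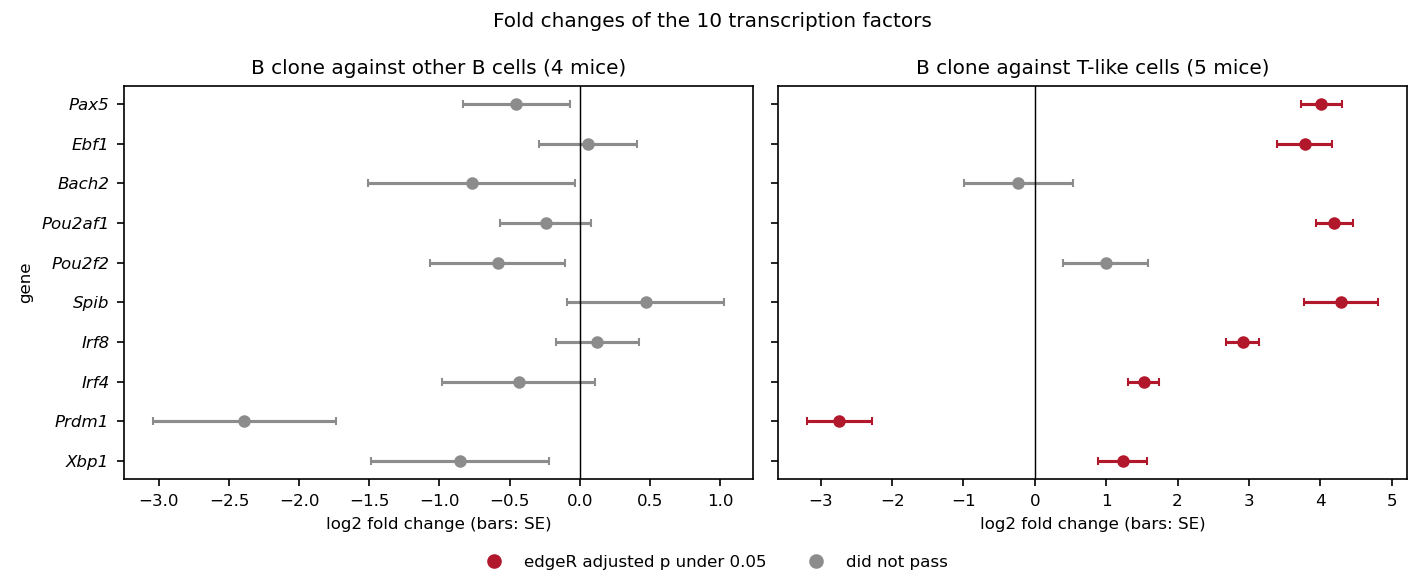
Points give the log2 fold change (x axis) of each member (rows) by edgeR, with bars of 1 standard error, for B clones against other B cells in 4 mice (left) and against T-like cells in 5 mice (right), and red marks an adjusted p under 0.05. On the left Prdm1 lies at -2.39 and no member is red, and on the right 8 of 10 members are red, 7 to the right of 0 and Prdm1 at -2.74.

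In the same fit, of 11 B cell identity genes tested (12 listed, such as Cd79a) 0 passed, with a median of -0.25 on the log2 scale. Of 8 plasma cell genes tested (10 listed) 0 passed, with a median of -1.56, and of 14 targets of Xbp1 in the unfolded protein response 0 passed, with a median of -0.67. Of 16 other transcription factors of the B lineage 0 passed, with a median of -0.01.

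B clones were next set beside T-like cells of the same 5 libraries, a contrast of B and T lineage cells that leaves out the other classes. Of 12454 genes 3539 passed (28.4%), 12.9% of genes higher and 15.5% lower in the clone. Of the 10 members 7 were higher, 1 was lower and 2 did not pass. The median of the members was 2.22 on the log2 scale, beside 0.05 for all genes.

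Pou2af1, Pax5, Ebf1 and Spib separated the lineages most. Pax5 was at 11.6, 9.35, 5.85, 6.40 and 6.37 CPM in the T-like cells of mice 27, 29, 31, 33 and 34, below each clone, with a log2 fold change of 4.02 (SE 0.29, adjusted p = 0.000345 by edgeR). Ebf1 was at 26.9 to 47.0 CPM in T-like cells of the BCR mice and was higher by 3.78 in the clone (SE 0.39, adjusted p = 0.000784). Pou2af1 was higher by 4.199 (SE 0.26, adjusted p = 0.000337) and Spib, at 0.719 to 2.93 CPM in T-like cells, by 4.29 (SE 0.52, adjusted p = 0.00153). Irf8 was higher by 2.91 (SE 0.23, adjusted p = 0.000393) and did not overlap between the groups either. The share of all genes without such overlap was not counted, here or for the members that follow.

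Ebf1 and Cd79a were lower in T-like cells of the TCR mice than in those of the BCR mice. Ebf1 was at 2.46 and 1.27 CPM in T-like cells of the TCR mice 30 and 32, below the 26.9 to 47.0 CPM of the BCR mice. Cd79a moved likewise, at 2.34 and 0.634 CPM in those mice and 10.7 to 51.5 in the BCR mice. The highest Pou2af1 in T-like cells, 62.1 CPM, was in mouse 31, whose clone had the most Pou2af1. Free RNA and doublets as the source of these UMIs were not tested, and removing the 569 cells (0.754%) that held UMIs of Cd3 genes together with B cell genes gave fold changes of 4.28 for Pax5 and 4.01 for Ebf1.

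The plasma cell factors parted in this contrast. Irf4 was at 31.4, 39.3, 24.6, 43.7 and 46.9 CPM in T-like cells of mice 27, 29, 31, 33 and 34, below each clone, and was higher by 1.53 in the clone (SE 0.22, adjusted p = 0.00282 by edgeR). Xbp1 was at 23.3 to 49.8 CPM in T-like cells and was higher in the clone in 5 of 5 mice, by 1.23 (SE 0.35, adjusted p = 0.0364), although the groups overlapped. The call of Xbp1 was lost without mouse 27 (adjusted p = 0.102), 31 (0.0687), 33 (0.0543) or 34 (0.0937). Prdm1 went the other way. It stood at 154, 95.9, 55.0, 144 and 74.2 CPM in T-like cells, above the clone of the same mouse in 5 of 5 mice, and differed by -2.74 on the log2 scale (SE 0.46, adjusted p = 0.00536). Without the mouse as a block the value was -2.11 (adjusted p = 0.0578). The smallest within-mouse difference was in mouse 27, whose clone had 0.530 of the Prdm1 level of its T-like cells, against 0.0498 in mouse 31.

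Bach2 and Pou2f2 did not pass. Bach2 was at 77.6, 124, 84.3, 78.7 and 91.0 CPM in T-like cells of mice 27, 29, 31, 33 and 34, a narrow range, and the clones lay above it in mice 29, 33 and 34 and below it in mice 27 and 31. The log2 fold change was -0.23 (SE 0.76, adjusted p = 0.845 by edgeR). Pou2f2 was at 7.43 to 60.9 CPM in T-like cells and was higher in the clone in 4 of 5 mice, by 0.99 on the log2 scale (SE 0.60, adjusted p = 0.247). Without mouse 31, in which T-like cells held more Pou2f2 than the clone, the value was 1.60 (adjusted p = 0.0164).

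Of the surrounding lists, beside the 12.9% of all genes that were higher and 15.5% lower, all 11 B cell identity genes tested were higher in the clone, led by Cd79a at 5.18 (SE 0.37, adjusted p = 0.000345 by edgeR), the B cell antigen CD20 gene Ms4a1 at 4.84 and Cd79b at 4.76. Of 7 plasma cell genes tested 6 were higher, led by Mzb1, a chaperone of immunoglobulin assembly, at 5.71 and followed by Jchain at 5.01, Derl3 at 4.47 and Eaf2 at 2.69. Of the 14 Xbp1 targets 7 were higher, led by Herpud1 at 1.80, Pdia6 at 1.66, Sdf2l1 at 1.55 and Manf at 1.13. Of the 16 other B lineage factors 5 were higher and 3 lower, with Mef2c at 4.31, Bcl11a at 4.06, Spi1 at 3.54 and Mef2b at 3.28 as the 4 largest. The list medians were 3.92 for B cell identity, 2.69 for plasma cell genes, 0.80 for Xbp1 targets and 0.57 for the other factors.

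**Figure D4:**
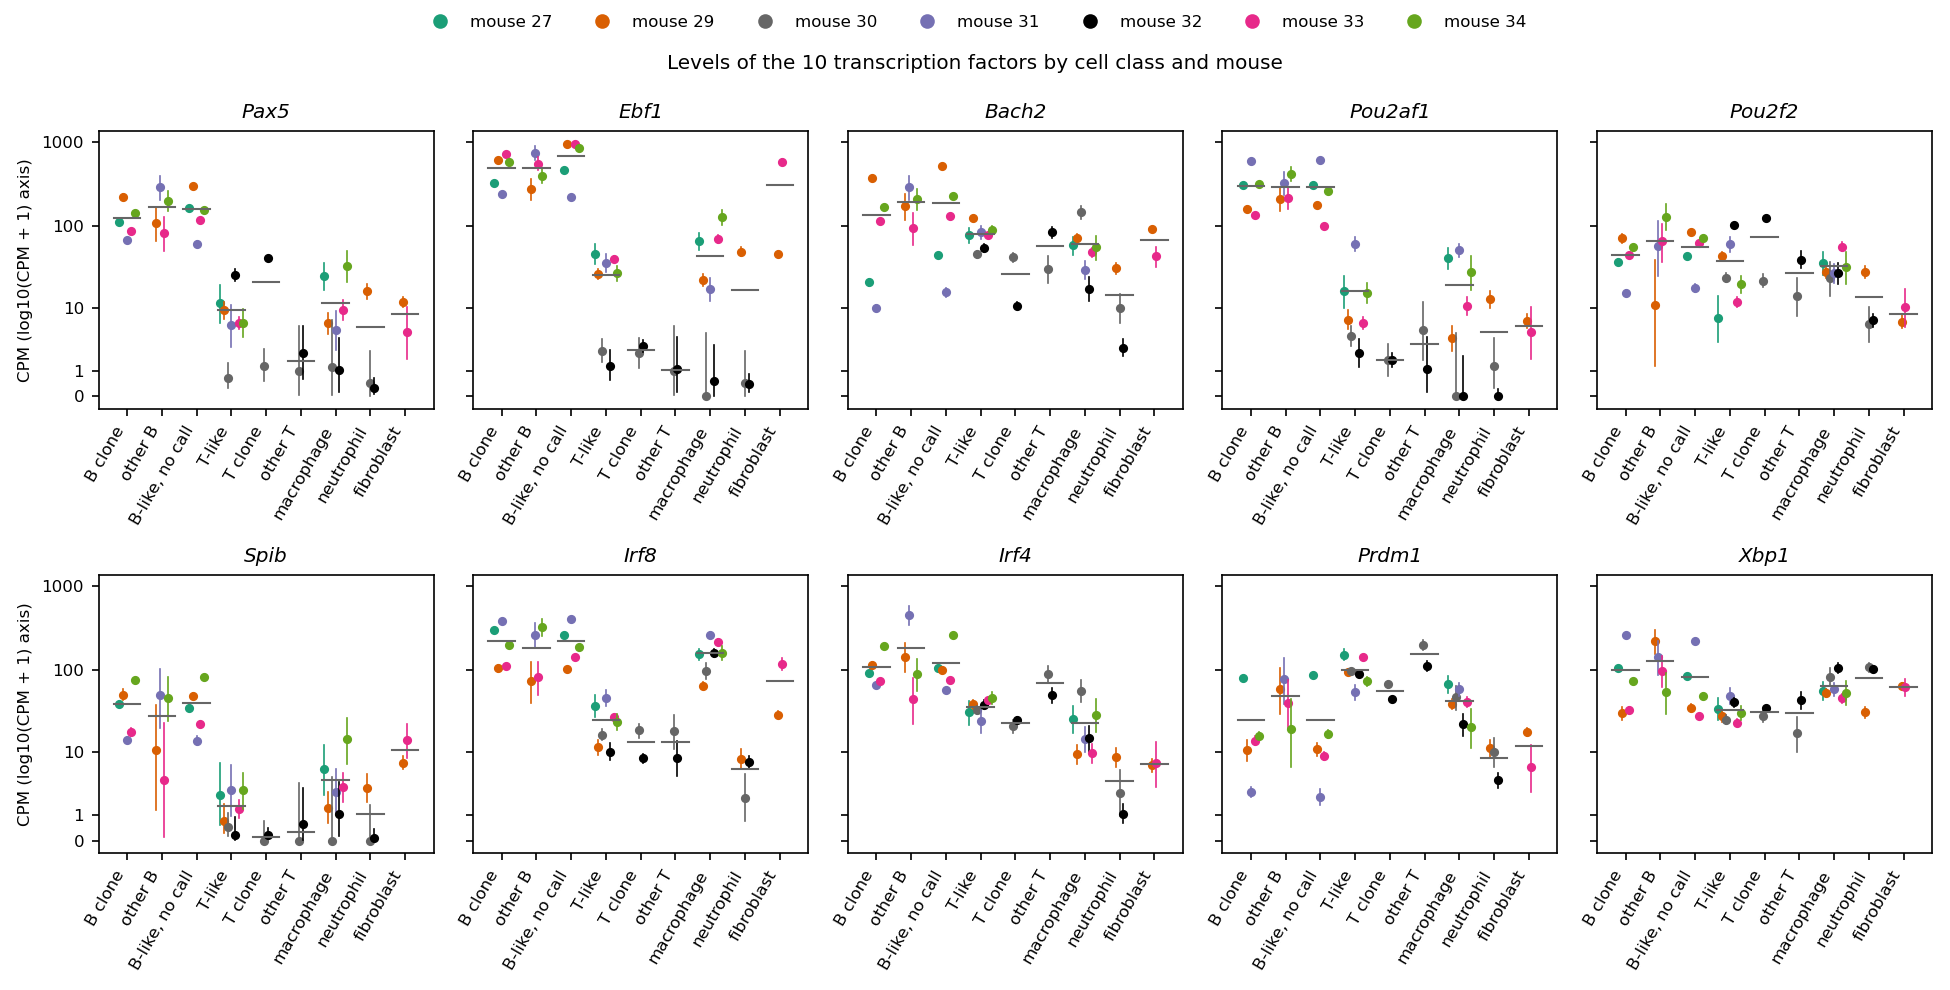
Each panel plots the level of a member (CPM, on a log10(CPM + 1) axis) by cell class, with a point for each mouse, exact 95% Poisson intervals as bars and the mean over mice as a horizontal line. Pax5 and Spib lie higher in the 3 B cell groups than in T-like cells of every mouse, Irf8 in macrophages overlaps the range of the B clones, and Prdm1 is higher in T-like cells than in B clones of the same mice.

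To see the members per cell, cells were thinned to 1000 UMIs, since clone cells are far deeper than others. After thinning, 12.0% ± 5.68 (SD, n = 5 mice) of clone cells held a Pax5 UMI and 35.2% ± 11.1 held an Ebf1 UMI, against 0.940% ± 0.761 and 2.35% ± 1.67 of T-like cells (n = 7 mice). Without thinning the clones gave 64.8% for Pax5 and 89.6% for Ebf1. Prdm1 was found in 7.92% of thinned clone cells of mouse 27 and in 0.327% to 1.91% of those of the other 4 mice, beside 4.63% to 13.7% of T-like cells. In mouse 27, 17 of the 141 thinned clone cells with a Prdm1 UMI (12.1%) also held a Pax5 UMI, beside 10.5% of the rest of the clone.

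B-like cells without a receptor call, which outnumbered the clone in mice 27, 29, 33 and 34, had levels that followed the clone of their own mouse. Prdm1 was at 88.4 CPM in those of mouse 27 and at 2.25 to 17.1 CPM in the other 4 mice. Bach2 was at 45.1, 516, 15.8, 132 and 231 CPM in mice 27, 29, 31, 33 and 34, the same order of mice as in the clones. Their lack of a receptor call does not show that they lie outside the clone.

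B-like cells of the TCR mice gave no usable second reference. Mouse 30 had 37 of them, 16 with a Cd79a UMI, and mouse 32 had 28, 2 with a Cd79a UMI, so those of mouse 32 went against their label. Of 13735 genes tested between the 5 B clones and these 2 sums 1 passed (0.00728%), 1664 had an unadjusted p under 0.05, and 0 of the 10 members passed by edgeR or by DESeq2, which called 137 genes. In mouse 30 these cells held 443 CPM of Pax5, 1020 of Ebf1 and 578 of Bach2, each above the highest clone. The median fold change over all genes was 0.99 on the log2 scale with edgeR's scaling and -0.07 with DESeq2, so no direction is given for the members.

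Outside the B lineage, Irf8 was a myeloid gene as well. It stood at 65.9 to 263 CPM in macrophages or monocytes of the 7 mice (median 160), within the range of the B clones in 5 of them and below it in mice 29 and 30, and at 2.18 to 8.22 CPM in neutrophils of 3 mice. Within the macrophage or monocyte class the highest Irf8, 558 CPM, was in a subcluster of 115 cells led by Plbd1, Cst3 and Il12b, which also held 191 CPM of Flt3 and 128 of Clec9a, markers of dendritic cells. Ebf1 was at 574 CPM in fibroblasts of mouse 33 and 46.5 in those of mouse 29, and at 187 to 578 CPM in endothelial cells of 3 mice. Pax5 stood at 4.75 and 12.0 CPM in the fibroblasts of mice 33 and 29, and at 11.3, 20.3 and 102 CPM in the endothelial cells of mice 29, 33 and 34. The 63 endothelial cells of mouse 34 also held 124 CPM of Pou2af1, 130 of Irf4 and 53.9 of Spib, and the part of B cell RNA in their Ebf1 was not tested. Xbp1 was at 104 to 109 CPM in neutrophils of the TCR mice and 31.6 in those of mouse 29.

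The T clones of the TCR mice were followed because several members also work in T cells. A T clone is the set of cells that share the most common receptor chains, 2107 cells in mouse 30 and 4868 in mouse 32, and other T cells are T-like cells with a different receptor, 394 and 503. Of 11639 genes 25 passed (0.215%), and 0 of the 6 members that reached the count filter did, with 1110 genes at an unadjusted p under 0.05 and 3 members among them. Pax5, Ebf1, Pou2af1 and Spib did not reach the filter. Irf4 was at 21.2 CPM in the clone and 90.6 in other T cells of mouse 30, and at 25.5 and 50.6 in mouse 32. Prdm1 was at 68.4 and 201.5 CPM in mouse 30, and at 45.5 and 114 in mouse 32. Both were lower in the clone in 2 of 2 mice, a pattern whose share over all genes was not counted. The log2 fold changes by edgeR were -1.68 (SE 0.35, adjusted p = 0.203) for Irf4 and -1.59 (SE 0.24, adjusted p = 0.104) for Prdm1. DESeq2 called both, with adjusted p of 0.0457 for Irf4 and 0.00316 for Prdm1, and called 1.52% of genes lower. Markers of NK cells moved with them, at 29.6 to 64.5 CPM summed over 6 genes in the clones and 161 to 2008 CPM in other T cells, and their part was not tested. In mouse 32, 324 clone cells lay in clusters of another class, and with clone cells of T-like clusters alone the values were -1.48 for Irf4 and -1.40 for Prdm1 (adjusted p = 0.472 and 0.265).

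Pax5 was present in the T clone of mouse 32. It stood at 41.8 CPM over the clone, 53.7 CPM [50.6 to 57.0] from 1100 UMIs in the 4519 clone cells of its main cluster, and 40.8 CPM in 1774 cells without a receptor call in the same cluster. It was at 7.98 CPM in the 324 clone cells of other classes, at 0.627 CPM from 1 UMI in T cells with another receptor in other clusters, and at 1.53 CPM in the main cluster of the clone of mouse 30. In those 4519 cells Ebf1 was at 2.44 CPM and Cd79a at 0.488 CPM, whereas Cd3e was at 452 CPM. Of the 4868 clone cells, 515 held 1 Pax5 UMI, 178 held 2 and 77 held 3 or more. After thinning, 3.86% of clone cells of mouse 32 held Pax5 (95% exact interval 3.33 to 4.44%), beside 0 of 500 other T cells, for which the exact upper limit is 0.735%, and 0.1497% of the clone of mouse 30. Pou2f2 stood at 158 CPM in the clone cells of the main cluster, beside 28.2 CPM in T cells with another receptor in other clusters and 19.0 in the clone of mouse 30. The 64 cells with another receptor in the main cluster held 141 CPM of Pou2f2 from 26 UMIs and 16.3 CPM of Pax5 from 3 UMIs. The 25 clone cells in other T-like clusters held 96.4 CPM of Pou2f2 from 8 UMIs [41.6 to 190] and 0 UMIs of Pax5. This is 1 clone in 1 mouse, its genes define its cluster, and no test was made within mouse 32. A fit over the TCR mice with no filter on low counts called Pax5 higher, and its values are given with the alternative settings.

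**Figure D5:**
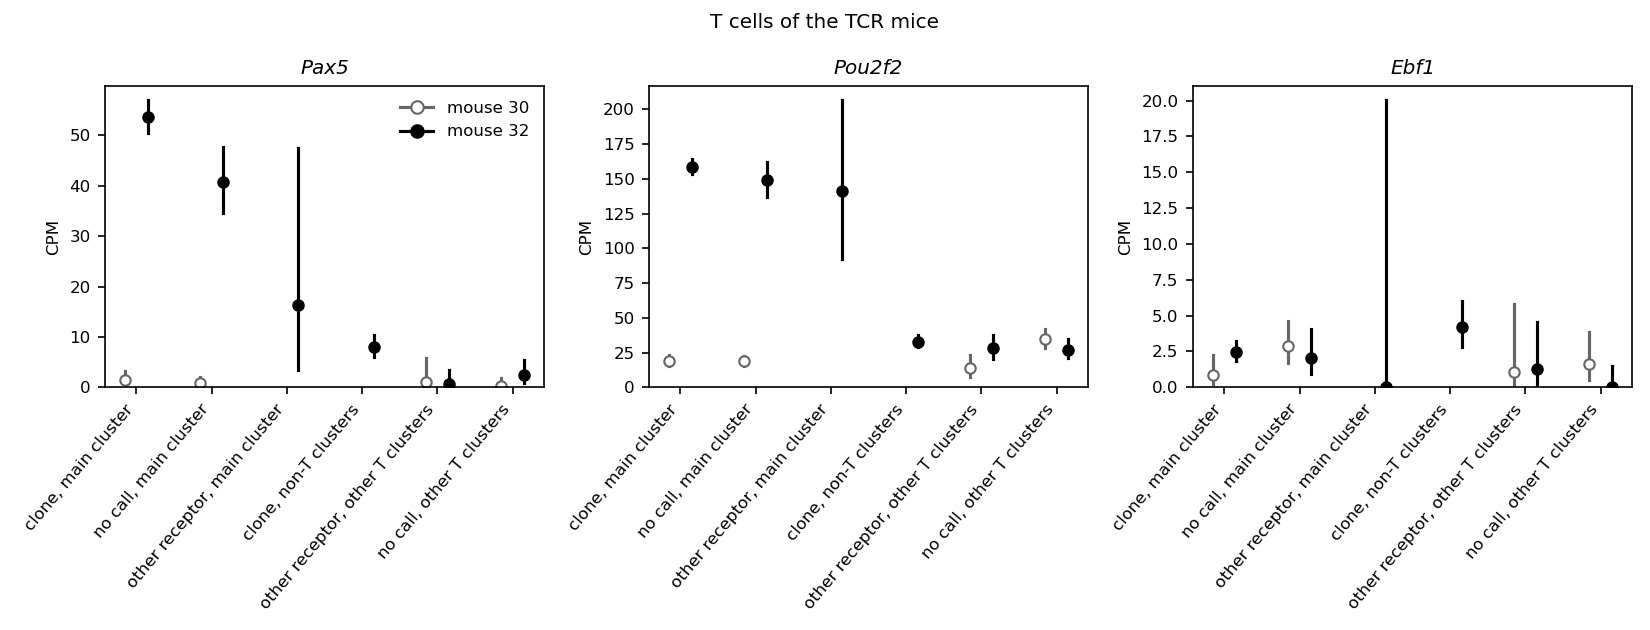
Points give the CPM of Pax5, Pou2f2 and Ebf1 in groups of T cells of mouse 30 (open) and mouse 32 (filled), with exact 95% Poisson intervals, and leave out clone cells in other T-like clusters. In mouse 32 Pax5 is at 53.7 and Pou2f2 at 158 CPM in clone cells of the main cluster, and in T cells with another receptor in other clusters they are at 0.627 and 28.2 CPM.

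Across the 40 sums of a cell class in a mouse, Pax5, Spib, Pou2af1 and Ebf1 had similar patterns, with Pearson's r on log2(CPM + 10) of 0.853 for Pax5 and Spib, 0.852 for Pax5 and Pou2af1 and 0.826 for Pax5 and Ebf1. Prdm1 and Xbp1 had -0.421. These sums share libraries and clones and the values are a description. Among 8559 genes the closest to Pax5 was Iglc1 (0.928), to Pou2af1 Iglc3 and Ms4a1 (both 0.976) and to Spib Endou (0.897). The closest to Irf8 was Plekho1 (0.896), to Irf4 Neil1 (0.851), to Prdm1 Fyn (0.827), to Xbp1 Tmem184b (0.766), to Pou2f2 Grk2 (0.71) and to Bach2 Ccr7 (0.696).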

How the data were processed

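The deposited files held raw UMI counts per gene and cell, made by the authors from 7 single-cell RNA libraries, with no normalization, and lists of receptor contigs with the authors' clonotype numbers. The submitters' processing notes name the genome builds GRCm38 and mm10, and the aligner is not given in the sources used here. The study names a 3′ kit for its single-cell RNA and a 5′ kit for its receptor libraries, so the end of the transcripts counted in the nodules was not settled. The files held 0 columns of samples outside the series.

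Cells with at least 201 UMIs, at least 101 genes and at most 10% mitochondrial UMIs were kept, the limits the study states, and every deposited cell held at least 500 UMIs. Depth was 19264039 to 123456962 UMIs a library. Counts per cell were scaled and log-transformed, and 2000 variable genes without the 10 members entered 30 principal components and Leiden clustering with scanpy 1.11.5 and leidenalg 0.10.2 (resolution 1.0, 15 neighbors, 34 clusters). A cluster was named by at least 3 listed markers that were found in at least 10% of its cells and were at least 1.5 times the median cluster. No doublets were removed in the values reported, and removing 569 cells with UMIs of both Cd3 and B cell genes was an alternative. Classes are described with at least 50 cells in a mouse, and B cell groups with at least 20.

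UMIs were summed per mouse and group and tested with edgeR 4.0.16 in R 4.3.3 (TMM scaling, filterByExpr, quasi-likelihood test, Benjamini-Hochberg over all genes tested, threshold 0.05), with the mouse as a block where both groups come from the same mouse. Sums of the same mouse deviated together, with correlations of 0.202 to 0.561 for clone and other B cells, 0.247 to 0.359 for clone and T-like cells and 0.400 for T clone and other T cells. DESeq2 1.42.0, other scaling, no filter, leaving out each mouse, the authors' dominant clonotype alone, clusters of the matching lineage, receptor genes left out, cells with at least 1000 UMIs, resolution 2.0 and no block were alternatives. The scripts were tested on simulated data. All 10 members are named, and from each of 4 lists (B cell identity, plasma cell, Xbp1 targets and other B lineage factors) the 4 genes with the largest change among those that passed, except for a gene that is not reported here. The members and lists were chosen with earlier results of these data known.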

Additional observations from a re-analysis of the deposited data

Results flagged for a closer look

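In groups of 4 to 10 mice, the highest and lowest mouse was compared with the next by Dixon's 95% limit on the gap over the range. Of 50 groups examined 9 held such a mouse, and chance gives about 1 in 20. Prdm1 stood apart in mouse 27 in B clone cells (81.4 CPM, next mouse 16.2) and in B-like cells without a receptor call (88.4 CPM, next 17.1). The tumor of mouse 27 was described as grown after transfer into a recipient, which cannot be told apart from its other traits. Irf4 stood apart in B-like cells without a call of mouse 34 (265 CPM, next 105). Among T-like cells, Pax5 stood apart in mouse 32 (26.0 CPM, next 11.6), the mouse whose T clone held Pax5, and Pou2af1 in mouse 31 (62.1 CPM, next 16.5). Among macrophages or monocytes, mouse 30 stood apart for Bach2 (146 CPM, next 72.7) and Irf4 (57.5 CPM, next 29.4), mouse 33 for Pou2f2 (56.9 CPM, next 36.4) and mouse 34 for Spib (14.7 CPM, next 6.06). That Spib value came from 10 UMIs. The same cells held 128 CPM of Ebf1 and 33.8 of Pax5, the most of any macrophage sum, and the part of B cell RNA was not tested. A subcluster led by C1qb and C1qc, with 123 of 140 cells from mouse 33, held 191 CPM of Pou2f2. A macrophage or monocyte subcluster led by Atf3 and Ccl4 held 133 CPM of Bach2 and 58.2 CPM of Irf4. It was found in 3 mice, but 175 of its 197 cells came from mouse 30.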

How the results depend on the processing

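For B clones against other B cells, 142 of 160 values of members kept their direction and side of the threshold, and Prdm1 passed in 3 fits, so that 1 member passed with DESeq2, 1 with other B cells of the Ighm-led cluster and 1 without mice 33 and 34. Over all genes, 2 at the settings reported, the count was 128 with DESeq2, 117 with no filter, 7 to 19 with a mouse left out, 7 with clone cells of B-like clusters, 0 without receptor genes, 5 with cells of at least 1000 UMIs, 0 with no block, 103 with the Ighm-led cluster and 103 without mice 33 and 34. Small values that passed nowhere changed sign on the log2 scale. With a mouse left out Pax5 ran from -0.77 to 0.031, Ebf1 from -0.16 to 0.53, Bach2 from -1.34 to 0.19, Irf8 from -0.11 to 0.39, Irf4 from -1.03 to 0.32 and Xbp1 from -1.56 to 0.0036, with the sign turning without mouse 31 for Pax5, Bach2, Irf8 and Irf4, without mouse 29 for Xbp1 and without mouse 29, 33 or 34 for Ebf1. Ebf1 was -0.023 with DESeq2, -0.025 with RLE scaling, -0.080 with the authors' clonotype and -0.33 without mice 33 and 34, where Pou2af1 was 0.14, Pou2f2 0.0058 and Spib -0.14. Against T-like cells, 141 of 150 values of members kept, the count of all genes (3539) ran from 2337 to 3054 with a mouse left out, and Bach2 ran from -0.78 to 0.42 with a mouse left out (above 0 without mouse 27 or 31) and was 0.62 with no replicate block. The block of the mouse, a pairing by origin, changed no other call of a member. Against B-like cells of the TCR mice, 158 of 170 kept, and all genes (1) gave 137 with DESeq2, 0 to 0 with a mouse left out, 0 without the doublets and 0 with the Ighm-led cluster. With a mouse left out Pax5 ran from -1.63 to 2.34, Ebf1 from -0.83 to 0.65, Bach2 from -2.13 to 0.44, Pou2f2 from -0.14 to 0.42, Irf8 from -1.41 to 1.57 and Prdm1 from -2.35 to 1.53, with the sign turning without mouse 30 for Pax5, Ebf1 and Bach2, without mouse 29 or 30 for Pou2f2 and without mouse 32 for Irf8 and Prdm1. Pou2f2 was -0.11 with DESeq2 and with RLE scaling, and -0.096 at resolution 2.0. In the Ighm-led cluster Irf8 was 1.41 and Prdm1 0.79. For the T clones, 64 of 72 kept, with 2 members called by DESeq2 and 3 with no filter (Irf4 and Prdm1 lower, Pax5 higher at 3.53, adjusted p = 0.00488 by edgeR). Pax5 stood at 41.8 CPM in the clone and 2.25 in other T cells of mouse 32. In mouse 30 it stood at 1.29 CPM from 7 UMIs and 1.02 from 1 UMI. Over all genes (25) the count was 220 with DESeq2, 4 with RLE scaling, 525 with no filter, 0 with clone cells of T-like clusters, 4 without doublets, 15 without receptor genes, 0 with at least 1000 UMIs and 0 with no block. Xbp1 turned to 0.038 with no filter and 0.0028 without doublets, and Bach2 was -2.97 in mouse 32 and 0.47 in mouse 30. Unthinned, the mean shares of clone cells with a UMI were 64.8% for Pax5, 89.6% for Ebf1, 49.2% for Bach2, 85.1% for Pou2af1, 35.3% for Pou2f2, 33.02% for Spib, 77.6% for Irf8, 54.5% for Irf4, 15.9% for Prdm1 and 49.8% for Xbp1. At 2000 UMIs they were 21.2% for Pax5, 53.2% for Ebf1, 41.1% for Pou2af1, 8.23% for Pou2f2, 7.79% for Spib, 33.4% for Irf8 and 18.3% for Irf4. The cause of these changes was not tested, except that shares rise with depth by construction. The 24 to 41 other B cells of a mouse limit what could be seen, since a member could differ and not pass.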
